A study of Mus musculus with 6 samples.

Results

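The 10 genes described here encode receptors and ligands by which leukocytes attach to the vessel wall: Vcam1, Icam1, Icam2, Sele, Selp, Itga4, Itgal, Itgb2, Itgam and Selplg. They were listed by name, with no measured value in the rule, and all 10 were found among the 27998 genes of the files. The study sampled aorta from mice of the strain C57B/6J at 18 weeks of age under 2 treatments, high-fat diet with 3 samples and Control with 3 samples, and the labels name no transgene, Cre driver or other agent in either group. Tissue was dissociated with collagenase, and single cells were captured in droplets that count each transcript once, near its 3′ end, by a unique molecular identifier (UMI). The labels used here do not say how many mice gave a sample or how long the diet lasted, so p-values measure the spread between these 6 samples.

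The 3 high-fat diet samples held 10888, 8268 and 10301 cells with 47249838 to 53170232 UMIs, and the 3 control samples held 6623, 18138 and 8620 cells with 41388034 to 83886418 UMIs. After filters and removal of 1379 likely doublets, 58034 cells remained. Several clusters came mostly from 1 or 2 libraries. Control 1 gave 1633 of the 1665 cells of 1 fibroblast-like cluster, 1217 of the 1258 cells of 1 smooth muscle-like cluster and 449 of the 454 cells of 1 macrophage-like cluster. Of 2 other smooth muscle-like clusters, high-fat diet 2 gave 1880 of 2406 cells and high-fat diet 1 gave 1589 of 2584 cells. High-fat diet 1 and 2 gave 1407 and 1226 of the 2751 cells of another fibroblast-like cluster. B cell-like cells numbered 442, 63 and 147 in the high-fat diet samples, against 12, 2567 and 2334 in the control samples. Any 2 samples shared 61 to 260 cell barcodes, regardless of well.

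Leukocytes leave the blood in steps. Selectins on activated endothelium (P-selectin, Selp, and E-selectin, Sele) catch rolling leukocytes through PSGL-1, the product of Selplg. Integrins then hold the cell: VLA-4, built from the alpha chain Itga4, binds VCAM1, LFA-1 (Itgal with Itgb2) binds ICAM1 and ICAM2, and Mac-1 (Itgam with Itgb2) binds ICAM1. In arteries, VCAM1 and ICAM1 are known for their rise on endothelium at sites where atherosclerosis begins, and NF-kB is a known activator of the genes for VCAM1, ICAM1 and E-selectin.

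In GENCODE vM21 coordinates on mm10 the genes lay on 8 chromosomes. The endothelial receptors were Vcam1 at chr3:116109949-116129688 on the minus strand, Icam1 at chr9:21015985-21028817 on the plus strand and Icam2 at chr11:106377656-106388075 on the minus strand. Both selectins lay on the plus strand of chromosome 1, Sele at chr1:164048234-164057677 and Selp at chr1:164115264-164150026, with 57586 bases between them. Of the leukocyte genes, Itga4 lay at chr2:79255426-79333123, Itgal at chr7:127296260-127335138, Itgam at chr7:128062640-128118491, Itgb2 at chr10:77530252-77565708 and Selplg at chr5:113818536-113832644. A second gene identifier under the name Itgam overlaps the first on the same strand, so the Itgam counts are uncertain to the extent that reads were split between them.

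The RefSeq table on GRCm38.p6 held promoter windows of 300 bases, from 250 before to 50 after the start, for 5 of the 10 members. The windows of Icam1 and of both selectins are shown because the results turn on the contrast between Icam1 and Selp, which were counted in endothelial cells, and Sele, which was nearly absent. Capitals mark matches to GGANNTTCC, a form of the NF-kB motif, and to TATAAA. They were searched on both strands, after the sequences had been seen. The windows lie at chr9:21015690-21015989 for Icam1, chr1:164047984-164048283 for Sele and chr1:164115014-164115313 for Selp, all on the plus strand.
Icam1: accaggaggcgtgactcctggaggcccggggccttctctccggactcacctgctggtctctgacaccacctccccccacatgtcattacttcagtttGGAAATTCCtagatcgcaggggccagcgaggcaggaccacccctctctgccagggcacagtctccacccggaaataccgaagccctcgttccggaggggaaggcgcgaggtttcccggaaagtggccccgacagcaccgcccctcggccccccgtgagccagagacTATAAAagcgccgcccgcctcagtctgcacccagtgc
Sele: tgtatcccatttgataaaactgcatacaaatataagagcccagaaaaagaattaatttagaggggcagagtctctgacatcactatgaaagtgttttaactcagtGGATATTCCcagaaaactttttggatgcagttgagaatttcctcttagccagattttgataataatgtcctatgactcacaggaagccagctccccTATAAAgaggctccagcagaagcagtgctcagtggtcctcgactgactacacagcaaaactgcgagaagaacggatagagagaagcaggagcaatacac
Selp: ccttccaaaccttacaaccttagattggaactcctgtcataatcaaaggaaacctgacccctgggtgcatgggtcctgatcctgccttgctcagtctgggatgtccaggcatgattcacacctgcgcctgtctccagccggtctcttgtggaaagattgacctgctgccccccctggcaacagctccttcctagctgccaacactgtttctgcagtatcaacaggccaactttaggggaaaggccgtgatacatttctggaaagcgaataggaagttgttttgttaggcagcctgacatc
The NF-kB-type match began at position -153 from the RefSeq start in Icam1 and at -145 in Sele, and Selp had none in this window. TATAAA was found at position 14 after the RefSeq start of Icam1 and at -49 in Sele. The RefSeq start of Icam1 lies upstream of its GENCODE start at 21015985, while the starts of Sele agree. Positions in Icam1 and Sele are therefore not directly comparable. Among all 32851 promoter windows of the table, 4.26% held the first motif and 13.6% held the second. These are matches of letters and not shown to be bound.

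Cells were grouped by clustering without the member genes, and named from marker lists by how many listed markers stood higher in a cluster than in the other cells, so the markers need not be its leading genes: only 1 of the 7 fibroblast-like clusters had a fibroblast marker among its 10 leading genes. The arterial-like endothelial cells (392 cells) were led by Gkn3, Vwf, Bmx, Cytl1 and Gja5, the capillary-like cells (1333) by Gpihbp1, Fabp4 and Tcf15, and the venous-type-like cells (257) by Plvap, Vwf and Lrg1. The 10 leading genes of the venous-type-like cells held these 3 venous-type markers beside 4 of the general endothelial list (Egfl7, Ptprb, Emcn and Flt1). Of the lymphatic-like cells (569), 338 were led by Ccl21a, Mmrn1, Reln and Lyve1, and the other 231 by Lrg1, Cldn5 and Mmrn1, with 2 lymphatic markers among their 10 leading genes. Clusters that could not be named are called by genes that need not be among their 10 leading genes. Levels are given as CPM, the UMIs of a gene in the summed cells of a sample and class, scaled to a common total of UMIs. UMIs at the 3′ end do not scale with transcript length, so no length correction was made.

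VCAM1, the ligand of VLA-4, was highest in arterial-like endothelium. Vcam1 in arterial-like cells had 868, 1125 and 735 CPM in high-fat diet samples 1 to 3, against 579, 838 and 505 CPM in control samples 1 to 3. Venous-type-like cells had 234, 243 and 71.2 CPM in high-fat diet samples, against 84.4, 110 and 144 CPM in control samples. Every arterial-like value was above every venous-type-like value, and the diets overlapped in both classes. Over the 6 samples the arterial-like mean was 775 ± 223 CPM (SD, n = 6), followed by 148 ± 74.5 in venous-type-like cells and 82.2 ± 15.2 in fibroblast-like cells. Capillary-like cells averaged 17.2 ± 9.23 CPM and lymphatic-like cells 16.95 ± 6.91 CPM, beside 19.6 ± 7.08 CPM in smooth muscle-like cells. With cells gated one by one on the markers in place of clusters, the arterial-like mean was 482 CPM.

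Within samples, Vcam1 was higher in arterial-like than venous-type-like cells by 2.49 ± 0.62 on the scale of log2(CPM + 1), which holds for every such step (SD, n = 6), and in 6 of 6 samples. Venous-type-like cells exceeded fibroblast-like cells by 0.71 ± 0.49, and fibroblast-like cells exceeded Ccr2 Lyz1 Ear2 myeloid cells by 0.91 ± 0.84, each in 6 of 6 samples. All 3 steps reached the smallest p that an exact sign-flip permutation of 6 samples allows (two-sided p = 0.03125), and none passed Benjamini-Hochberg adjustment over the 16 steps of the Vcam1 order (adjusted p = 0.167). The other steps, from the Ccr2 Lyz1 Ear2 myeloid cells at 50.04 CPM down to the Ccl5 Xcl1 lymphoid cells at 8.39 CPM, did not reach that p. A step at the smallest p passes the adjustment only if most of the 16 steps reach it, so the adjustment could hardly be passed. The order of classes was itself taken from the mean CPM of the same 6 samples. Another endothelial cluster of 133 cells, called Npr3 Hand2, was left untested since high-fat diet 3 had none of its cells. Npr3 was among its 10 leading genes, and Hand2 was not. Its Vcam1 level was 734 and 334 CPM in high-fat diet samples 1 and 2, against 1154, 612 and 281 CPM in control samples.

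**Figure D1:**
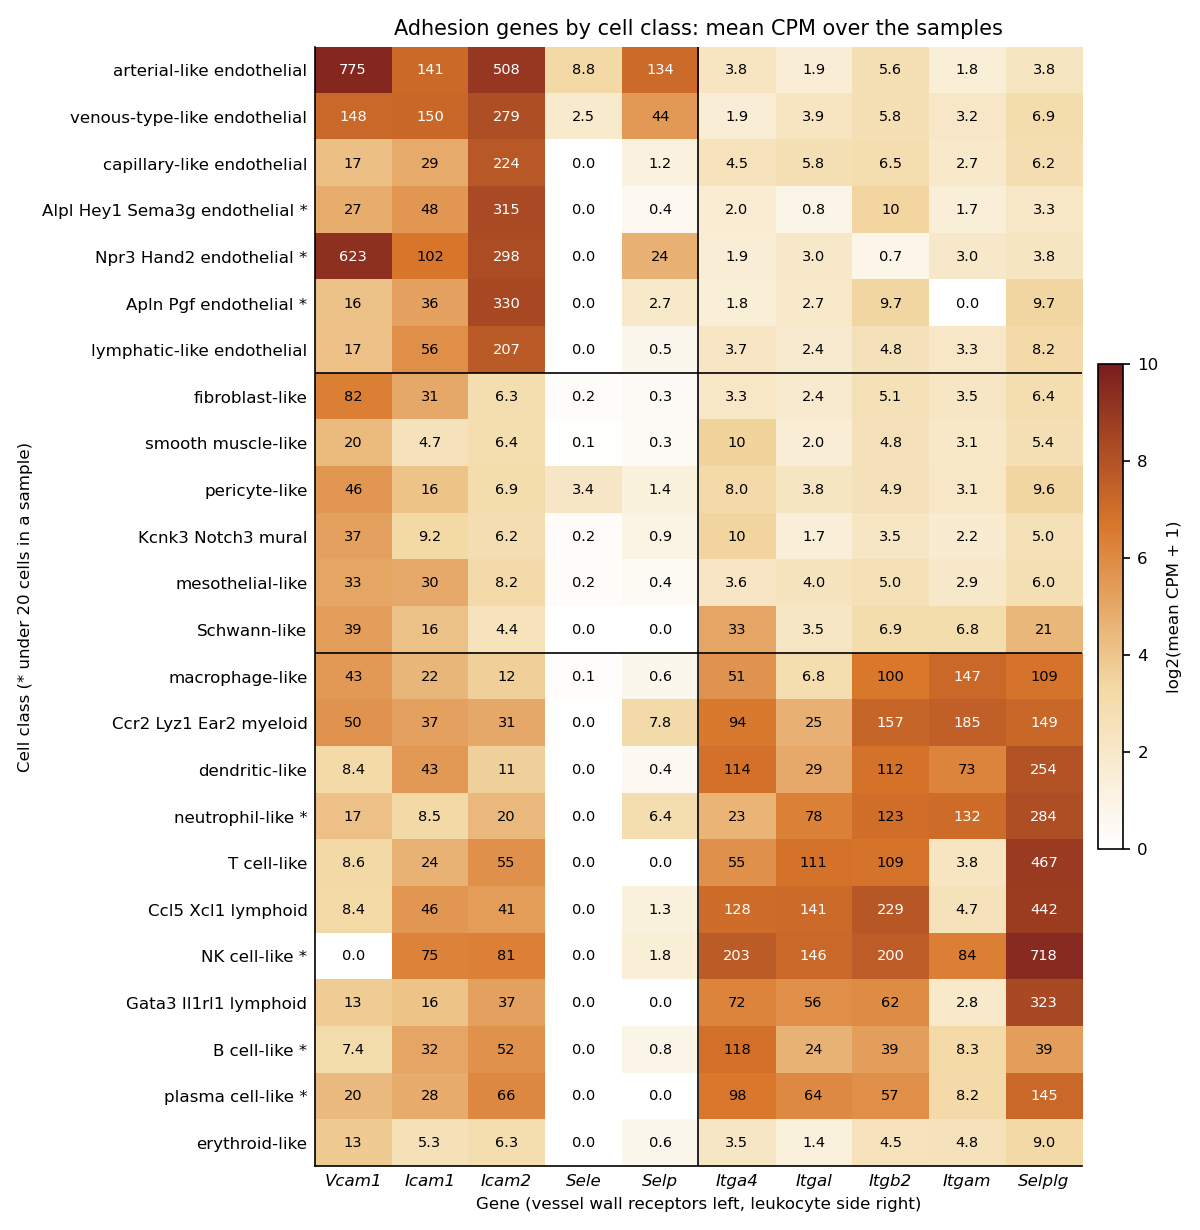
Heat map of the 10 members (columns, vessel wall receptors left and leukocyte genes right) in each cell class (rows), with the mean CPM over the samples printed and coloured as log2(mean CPM + 1), and an asterisk on classes with under 20 cells in a sample. Vcam1 is darkest in the arterial-like row at 775 CPM, Icam2 is dark in every endothelial row, and Itga4, Itgal, Itgb2, Itgam and Selplg are dark in the leukocyte rows.

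Most Vcam1 UMIs of the named classes did not come from endothelium. Fibroblast-like cells gave 55.1% of the 14110 Vcam1 UMIs (42.8% to 60.3% over samples), smooth muscle-like cells 11.9%, and blood vessel endothelial cells 16.5% (11.5% to 29.8%) from a median of 4.92% of the cells. Among fibroblast-like clusters the pooled Vcam1 level ran from 31.7 CPM in a Pi16 cluster and 36.3 CPM in a Thbs4 cluster to 154 CPM in a Col23a1 Spon2 cluster, which had 139 to 194 CPM over the 6 samples. The Pi16 cluster had 13.7 to 49.4 CPM over the samples, below the Col23a1 Spon2 cluster in each of them. Of the 2 clusters of Kcnk3 Notch3 mural cells, one had 50.1 CPM and the other 8.07 CPM. After each cell was thinned to 1000 UMIs, at least 1 Vcam1 UMI was seen in 43.1% of arterial-like cells, in 6.86% of fibroblast-like cells and in 0.52% of T cell-like cells, a class that should lack the gene. Without thinning these shares were 78.1%, 23.8% and 2.02%, at median depths of 4638, 4414 and 3254 UMIs. NK cell-like cells had 0 of 147 cells with a Vcam1 UMI, which allows a share of cells with a UMI of up to 2.04% and does not limit the share that expresses the gene.

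ICAM1, the ligand of LFA-1 and Mac-1, was spread more widely. Icam1 averaged 150 ± 90.2 CPM in venous-type-like cells and 141 ± 10.5 CPM in arterial-like cells (SD, n = 6), 55.6 ± 18.3 in lymphatic-like cells, 30.9 ± 7.95 in fibroblast-like cells and 29.2 ± 11.3 in capillary-like cells. Venous-type-like cells were higher than arterial-like cells in 3 of 6 samples. Those 3 were the high-fat diet samples, at 178 to 262 CPM in venous-type-like and 130 to 155 CPM in arterial-like cells, while in the 3 control samples venous-type-like cells had 55.0 to 81.3 CPM and arterial-like cells 131 to 151 CPM. Arterial-like cells exceeded lymphatic-like cells by 1.39 ± 0.40 on the log2 scale in 6 of 6 samples (exact sign-flip permutation, two-sided p = 0.03125, adjusted p = 0.5 over 16 steps). Leukocytes also carried Icam1, with 45.8 ± 11.5 CPM in Ccl5 Xcl1 lymphoid cells and 43.5 ± 9.49 CPM in dendritic-like cells. Among fibroblast-like clusters, pooled Icam1 ran from 10.4 CPM in the Pi16 cluster to 58.1 CPM in the Col23a1 Spon2 cluster, which were also the lowest and the highest for Vcam1. The Pi16 cluster had 7.69 to 16.3 CPM of Icam1 over the 6 samples, and the Col23a1 Spon2 cluster had 14.9 to 108 CPM, with 13 to 715 cells in a sample. Of 6955 Icam1 UMIs, fibroblast-like cells gave 43.5%, myeloid cells 15.8% and blood vessel endothelial cells 11.04%.

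ICAM2, an LFA-1 ligand kept on resting endothelium, marked every endothelial class. Icam2 averaged 508 ± 130 CPM in arterial-like cells, 279 ± 65.3 in venous-type-like cells, 224 ± 42.5 in capillary-like cells and 207 ± 47.1 in lymphatic-like cells (SD, n = 6). T cell-like cells had 55.0 ± 15.6 CPM, and smooth muscle-like, pericyte-like, fibroblast-like, mural and Schwann-like cells averaged 4.36 to 6.92 CPM. Arterial-like cells exceeded venous-type-like cells by 0.86 ± 0.44 on the log2 scale and lymphatic-like cells exceeded T cell-like cells by 1.90 ± 0.49, both in 6 of 6 samples (exact sign-flip permutation, two-sided p = 0.03125, adjusted p = 0.25 over 16 steps). The step between venous-type-like and capillary-like cells and the step between capillary-like and lymphatic-like cells did not reach that p. Thinned to 1000 UMIs, 37.8% of arterial-like, 20.2% of capillary-like and 0.565% of fibroblast-like cells had an Icam2 UMI.

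P-selectin, which endothelial cells store in Weibel-Palade bodies beside von Willebrand factor, was counted in few classes. Selp had 147, 201 and 127 CPM in arterial-like cells of high-fat diet samples, against 128, 129 and 70.8 CPM in those of control samples. Venous-type-like cells had 39.9, 61.9 and 17.8 CPM in high-fat diet samples, against 37.5, 20.3 and 85.9 CPM in control samples. Arterial-like cells were higher in 5 of 6 samples, the exception being control 3, where 21 arterial-like cells were counted. Capillary-like cells averaged 1.22 ± 1.08 CPM (SD, n = 6). Blood vessel endothelial cells gave 68.1% of the 558 Selp UMIs (41.9% to 89.5% over samples), and myeloid cells gave 15.9%. The myeloid share was 3.75%, 5.45% and 5.71% in high-fat diet samples, against 3.23%, 29.6% and 44.2% in control samples.

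E-selectin, made by endothelium after cytokine exposure, was nearly absent, with 50 UMIs over all named classes. Sele had 1, 7 and 1 UMIs in arterial-like cells of the 3 high-fat diet samples, against 3, 1 and 1 UMIs in those of the 3 control samples, and was at 0 in all capillary-like and lymphatic-like cells. A count of 3 UMIs would have been 4.23 to 10.8 CPM in arterial-like cells of high-fat diet samples and 6.65 to 30.3 CPM in those of control samples, and 4 of the 6 samples were below that count, at 1 UMI. Sele was tested by diet in no class.

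On the leukocyte side, Itgal and Itgam divided the tested classes by lineage, while Itga4 was counted in both lineages. The VLA-4 chain Itga4 averaged 128 ± 34.03 CPM in Ccl5 Xcl1 lymphoid cells, 114 ± 38.6 in dendritic-like cells, 93.5 ± 30.7 in Ccr2 Lyz1 Ear2 myeloid cells, 72.0 ± 31.1 in Gata3 Il1rl1 lymphoid cells, 55.0 ± 18.3 in T cell-like cells and 50.8 ± 13.4 in macrophage-like cells (SD, n = 6). None of the steps among those 6 classes reached the smallest p. Schwann-like cells, at 32.6 ± 14.2 CPM, exceeded smooth muscle-like cells at 10.5 ± 4.77 CPM in 6 of 6 samples (exact sign-flip permutation, two-sided p = 0.03125, adjusted p = 0.5 over 16 steps). Itga4 also stood at 203 CPM in NK cell-like cells, a class of 147 cells too small to test.

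The LFA-1 chain Itgal followed the lymphoid classes. It averaged 141 ± 40.2 CPM in Ccl5 Xcl1 lymphoid cells, 111 ± 34.3 in T cell-like cells and 56.2 ± 17.2 in Gata3 Il1rl1 lymphoid cells, against 24.7 ± 12.1 in Ccr2 Lyz1 Ear2 myeloid cells and 6.79 ± 7.31 in macrophage-like cells (SD, n = 6). Gata3 Il1rl1 lymphoid cells exceeded dendritic-like cells by 0.89 ± 0.22 on the log2 scale, and Ccr2 Lyz1 Ear2 myeloid cells exceeded macrophage-like cells by 1.92 ± 0.66, each in 6 of 6 samples (exact sign-flip permutation, two-sided p = 0.03125, adjusted p = 0.25 over 16 steps). The T cell-like clusters differed among themselves: pooled over samples, a Cxcr6 Cd163l1 cluster had 136 CPM of Itgal and 12.8 CPM of Itga4, whereas 2 other T cell-like clusters had 76.2 and 137 CPM of Itga4, the first with 346 of its 497 cells from control 2.

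The partner of Itgal was shared by both lineages. The common beta chain Itgb2 averaged 229 ± 103 CPM in Ccl5 Xcl1 lymphoid cells, 157 ± 38.8 in Ccr2 Lyz1 Ear2 myeloid cells, 112 ± 19.4 in dendritic-like cells, 109 ± 21.3 in T cell-like cells and 100 ± 12.4 in macrophage-like cells (SD, n = 6). The Mac-1 chain Itgam marked the myeloid side, with 185 ± 50.3 CPM in Ccr2 Lyz1 Ear2 myeloid cells, 147 ± 17.7 in macrophage-like cells and 72.6 ± 23.5 in dendritic-like cells, against 3.83 ± 2.58 in T cell-like cells. Ccr2 Lyz1 Ear2 myeloid cells and macrophage-like cells did not differ in Itgam beyond their spread, while macrophage-like cells exceeded dendritic-like cells by 1.05 ± 0.35 on the log2 scale in 6 of 6 samples (exact sign-flip permutation, two-sided p = 0.03125, adjusted p = 0.25 over 16 steps). Myeloid cells gave 84.1% of the 6090 Itgam UMIs and 59.5% of the 7293 Itgb2 UMIs.

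PSGL-1, the ligand of the selectins, had the highest level of the 5 leukocyte members in the 17 tested classes. Selplg averaged 467 ± 119 CPM in T cell-like cells, 442 ± 87.3 in Ccl5 Xcl1 lymphoid cells, 323 ± 88.1 in Gata3 Il1rl1 lymphoid cells, 254 ± 24.1 in dendritic-like cells, 149 ± 19.4 in Ccr2 Lyz1 Ear2 myeloid cells and 109 ± 17.8 in macrophage-like cells (SD, n = 6). T cell-like and Ccl5 Xcl1 lymphoid cells did not differ beyond their spread. Dendritic-like cells exceeded Ccr2 Lyz1 Ear2 myeloid cells by 0.77 ± 0.14 on the log2 scale, and Ccr2 Lyz1 Ear2 myeloid cells exceeded macrophage-like cells by 0.45 ± 0.16, both in 6 of 6 samples (exact sign-flip permutation, two-sided p = 0.03125, adjusted p = 0.125 over 16 steps). At 1000 UMIs, 55.1% of NK cell-like cells, 33.3% of T cell-like cells and 0.595% of fibroblast-like cells had a Selplg UMI. Over all 10 members, 19 of 160 steps reached the smallest p and 0 passed the adjustment over a member's 16 steps. A step could pass only if most steps of its member reached that p, so the failure to pass decides little.

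Leukocyte classes too small to test by diet carried the same genes. NK cell-like cells, with 8 cells in the smallest sample, had 603, 778 and 1006 CPM of Selplg in high-fat diet samples, against 447, 712 and 762 CPM in control samples, and their Vcam1 was at 0 in all 6. Neutrophil-like cells, with 12 cells in the smallest sample, had 183, 122 and 148 CPM of Itgam in high-fat diet samples, against 107, 51.6 and 179 CPM in control samples. B cell-like cells had 117, 134 and 114 CPM of Itga4 in high-fat diet samples, against 248.5, 45.4 and 49.9 CPM in control samples, where the highest value came from 12 cells of control 1. The diets overlapped in each of these 3 pairs, and Selplg stood at 39.1 CPM in B cell-like cells, below its level in every other leukocyte class.

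Across the 17 classes, the levels of the members fell into an endothelial and a leukocyte group. As a description, with classes sharing libraries and no p, Pearson's r of log2(mean CPM + 1) was 0.81 between Vcam1 and Selp, 0.75 between Icam1 and Icam2, 0.96 between Itgb2 and Selplg, 0.93 between Itgal and Selplg and -0.53 between Vcam1 and Selplg. Among 10019 other genes, those most like Vcam1 were Calml4 (r = 0.90), Mcfd2 (0.87), Fam3c (0.86), Cytl1 (0.85) and Ssfa2 (0.84). For Selp they were Ocln (r = 0.92), Vwf (0.89), Cytl1 (0.89), Serpina1e (0.89) and Hoxb9 (0.88), and Cytl1 stood in both lists. For Icam1 they were Cmip (r = 0.91), St3gal1 (0.88), Cenpt (0.84), Pigt (0.82) and Klf10 (0.82). For Icam2 they were She (r = 0.94), Tnfsf10 (0.93), Ccm2l (0.93), Pkn3 (0.92) and S1pr1 (0.91).

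By diet, 1 receptor in 1 endothelial class passed the threshold. Summed counts of each class were compared between diets with edgeR's quasi-likelihood test, with p-values adjusted by Benjamini-Hochberg over all genes of the class and a threshold of 0.05. Of 73 pairs of a member and a class with enough counts to be tested, 1 was called, against 0.088% of 114766 gene and class pairs. At an unadjusted p under 0.05 there were 13 of the 73 pairs, against 9.32% of all pairs. The 3 high-fat diet samples lay above the 3 control samples in 7 of the 73 pairs and below them in 5, against 8.95% and 5.92% of all pairs. These counts and all CPM are scaled to total UMIs, while edgeR's fold changes use its TMM factors. A fold change can therefore differ in size or sign from the CPM beside it. The fold change was positive in 40 of the 73, against 49.5% of all pairs. The pairs that could be tested are those with the higher counts, in 15 of the 17 classes.

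Icam1 in venous-type-like cells was the member called. It had 262, 243 and 178 CPM in high-fat diet samples, against 79.7, 81.3 and 55.0 CPM in control samples, with 29 to 45 cells in a high-fat diet sample and 32 to 60 cells in a control sample. All high-fat diet values lay above all control values. Icam1 rose in this class by 1.62 ± 0.27 on the log2 scale (SE, edgeR adjusted p = 0.025), where 0.205% of 3420 genes were called. The call was lost without high-fat diet 1 (edgeR adjusted p = 0.295), without high-fat diet 2 (0.183) and without control 3 (0.132), while the fold change stayed between 1.45 and 1.74 over 13 alternatives. Cells gated one by one, well 1 alone and well 2 alone were not among them. In those settings the smallest sample had 4, 13 and 5 venous-type-like cells. Keeping the doublets added no cell to the 257 of this class. The summed level of 8 capillary markers in these cells moved the same way, at 11523 to 15218 CPM in high-fat diet samples, against 9030 to 10771 CPM in control samples. That of 6 lymphatic markers was 107 to 485 CPM in high-fat diet samples, against 164 to 6659 CPM in control samples. The 7 venous-type markers overlapped, at 4121 to 4812 CPM in high-fat diet samples and 3936 to 4346 CPM in control samples, and the part of the other markers in the result was not tested.

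**Figure D2:**
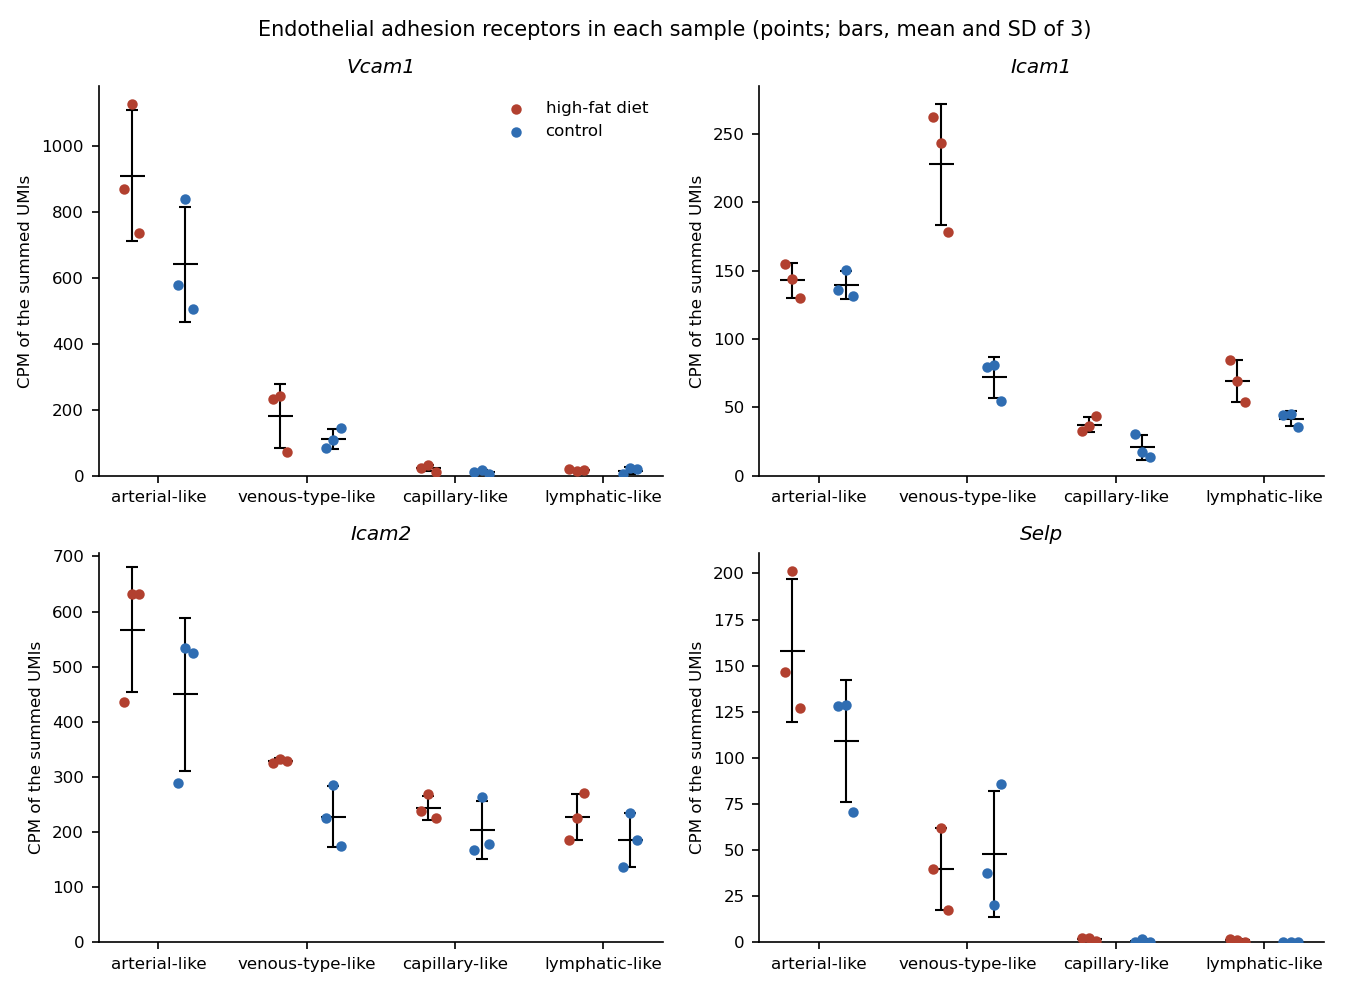
CPM of Vcam1, Icam1, Icam2 and Selp (vertical axes) in 4 endothelial classes, with 1 point per sample, high-fat diet left of control, and bars at the mean and SD of 3. Icam1 in venous-type-like cells is at 178 to 262 CPM in high-fat diet samples and at 55.0 to 81.3 CPM in control samples, and Icam1 in arterial-like cells overlaps.

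In the other endothelial classes no member was called. Icam1 in capillary-like cells had 32.7, 36.1 and 43.8 CPM in high-fat diet samples, against 30.8, 17.5 and 14.04 CPM in control samples, without overlap (log2 fold change 0.92 ± 0.30, SE, edgeR adjusted p = 0.244). The same gene in lymphatic-like cells had 84.5, 69.7 and 53.8 CPM in high-fat diet samples, against 44.9, 45.0 and 35.5 CPM in control samples, without overlap (0.67 ± 0.24, adjusted p = 0.295). In arterial-like cells Icam1 averaged 143 ± 12.8 CPM in high-fat diet samples and 139 ± 10.2 CPM in control samples (SD, n = 3 each), with a log2 fold change of -0.06 ± 0.22, and 0.62 with cells gated one by one on the markers. Of all genes, 0.275% were called in capillary-like, 0.529% in lymphatic-like and 0.0442% in arterial-like cells. Without control 1, capillary-like Icam1 passed the threshold (edgeR adjusted p = 0.0332), in a fit that called 377 of 8382 genes, against 22 of 8014 in the main analysis.

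Whether the diet difference in Icam1 itself differed between endothelial classes was tested as an interaction. In arterial-like against capillary-like cells it was -0.91 ± 0.38 on the log2 scale (SE, adjusted p = 0.911 by edgeR). There edgeR called 0 of 5974 genes (0%), with 324 at an unadjusted p under 0.05, and DESeq2 called 0. In venous-type-like against arterial-like cells, a contrast added after the data had been seen, it was 1.60 ± 0.34 (edgeR adjusted p = 0.295), with 0 of 3874 genes called and 215 at an unadjusted p under 0.05. In venous-type-like against capillary-like cells it was 0.79 (edgeR adjusted p = 0.994). A difference between the classes in their diet effect was not shown by these tests.

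The other endothelial receptors overlapped between diets in most classes. Arterial-like Vcam1 averaged 909 ± 198 CPM in high-fat diet samples and 641 ± 175 CPM in control samples (SD, n = 3 each), and the log2 fold change was 0.40 ± 0.24 (SE, adjusted p = 0.876 by edgeR). With cells gated one by one it was 1.13 (adjusted p = 0.323 by edgeR). Capillary-like Vcam1 averaged 22.8 ± 9.28 CPM in high-fat diet samples and 11.5 ± 5.68 CPM in control samples (log2 fold change 1.03 ± 0.45, edgeR adjusted p = 0.384), and the fold change ran from 0.34 with cells gated one by one to 1.48 without control 2. Icam2 in venous-type-like cells had 325, 333 and 329 CPM in high-fat diet samples, against 225, 285 and 175 CPM in control samples, without overlap (0.47 ± 0.23, edgeR adjusted p = 0.490). Arterial-like Icam2 averaged 567 ± 113 CPM in high-fat diet samples and 450 ± 139 CPM in control samples, and arterial-like Selp averaged 158 ± 38.5 CPM in high-fat diet samples and 109 ± 33.3 CPM in control samples. Neither was called. Summed over all blood vessel endothelial cells, the log2 fold changes were 0.22 for Vcam1, 0.39 for Icam1, 0.29 for Icam2 and 0.15 for Selp, and none was called, with 0.0491% of 10174 genes called.

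**Figure D3:**
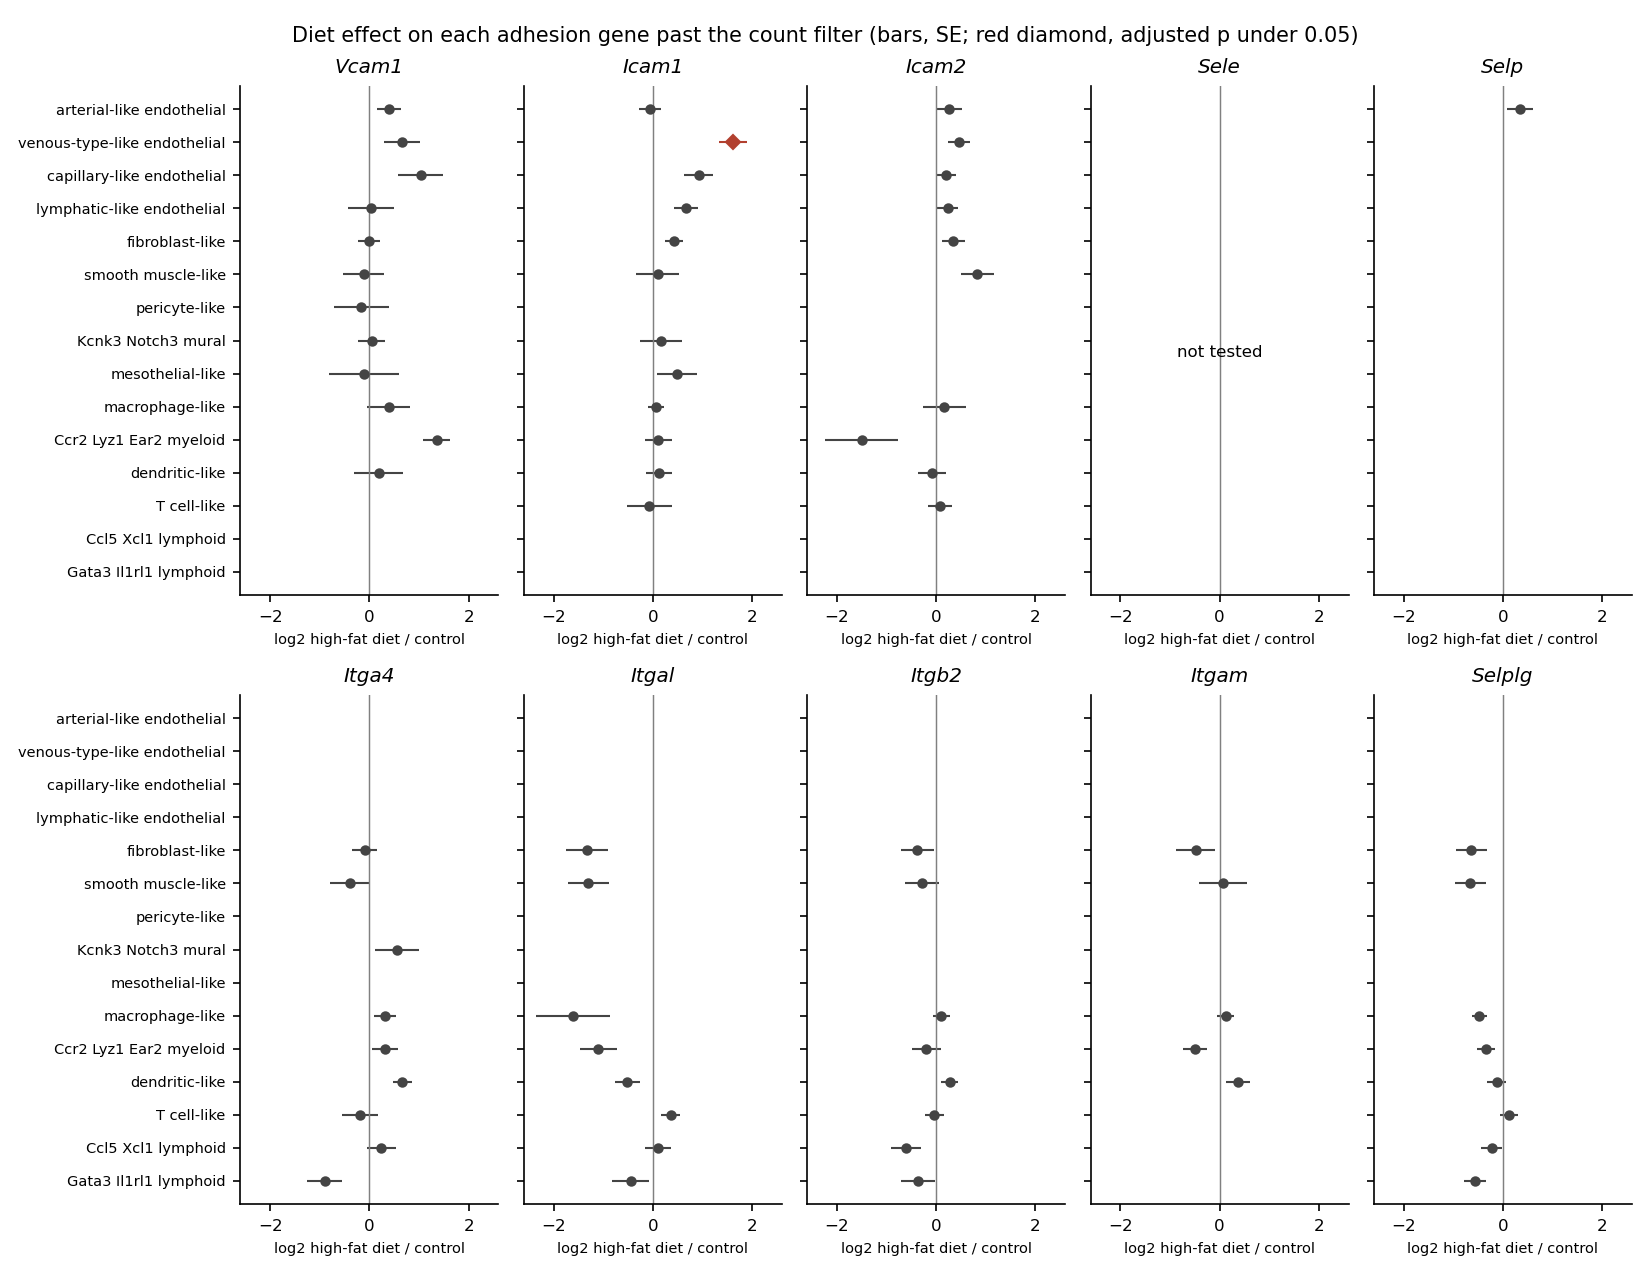
Log2 fold change, high-fat diet over control (horizontal axis), of each member (panels) in the 15 classes where at least 1 member was tested (rows), with bars at the SE and no point where a gene was not tested. The red diamond is Icam1 in venous-type-like endothelial cells, at 1.62, and every other point is black and past no threshold.

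In the other cells of the wall no member was called, with 0.301% of genes called in pericyte-like, 0.0443% in mural and 0.0771% in mesothelial-like cells. Fibroblast-like Vcam1, the largest source of its UMIs, averaged 83.8 ± 21.5 CPM in high-fat diet samples and 80.5 ± 10.3 CPM in control samples (SD, n = 3 each), and its log2 fold change was -0.01 ± 0.22 (SE, adjusted p = 0.993 by edgeR). Fibroblast-like Icam1 averaged 36.2 ± 7.86 CPM in high-fat diet samples and 25.7 ± 3.84 CPM in control samples (0.42 ± 0.18, edgeR adjusted p = 0.480). Smooth muscle-like Icam2 averaged 8.19 ± 2.37 CPM in high-fat diet samples and 4.57 ± 1.82 CPM in control samples (0.83 ± 0.34, edgeR adjusted p = 0.536). By edgeR, 0 of 13805 genes were called in fibroblast-like cells (0%), with 1437 at an unadjusted p under 0.05, and 0 of 13254 in smooth muscle-like cells, with 1186, while DESeq2 called 190 and 87 genes in the same classes. The clusters that make up these classes differed in size between libraries. Most cells of control 1 in these classes sat in clusters of their own. Of the 2149 smooth muscle-like cells of high-fat diet 2, 1880 sat in 1 cluster.

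Itgal was counted at low levels in fibroblast-like, smooth muscle-like and macrophage-like cells, and each time the high-fat diet samples lay below the control samples. Fibroblast-like cells had 1.75, 1.30 and 0.98 CPM in high-fat diet samples, against 2.68, 2.23 and 5.40 CPM in control samples (log2 fold change -1.33 ± 0.43, SE, edgeR adjusted p = 0.396). Smooth muscle-like cells had 1.63, 0.85 and 0.92 CPM in high-fat diet samples, against 2.32, 2.41 and 3.59 CPM in control samples (-1.30 ± 0.41, edgeR adjusted p = 0.504). Macrophage-like cells had 3.50, 3.37 and 3.40 CPM in high-fat diet samples, against 3.90, 4.90 and 21.7 CPM in control samples (-1.61 ± 0.74, edgeR adjusted p = 0.598), and the value without control 3 was -0.48. At 1000 UMIs, 0.161% of fibroblast-like cells had an Itgal UMI, against 8.603% of T cell-like cells. Markers of NK cells, 5 genes, moved the same way in fibroblast-like cells, with 2.49 to 4.11 CPM in high-fat diet samples and 5.66 to 21.4 CPM in control samples. Those of B cells were 8.03 to 27.9 CPM in high-fat diet samples and 10.7 to 166 CPM in control samples in the same class. Their part in the result was not tested.

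Among leukocytes, Vcam1 in Ccr2 Lyz1 Ear2 myeloid cells had the largest positive log2 fold change of the members tested. It had 77.9, 90.3 and 54.6 CPM in high-fat diet samples, against 17.3, 24.8 and 35.5 CPM in control samples, without overlap. The log2 fold change was 1.35 ± 0.28 (SE, adjusted p = 0.266 by edgeR), and edgeR called 0 of 8262 genes in this class, with 771 at an unadjusted p under 0.05, while DESeq2 called 14. It passed without control 1 (log2 fold change 1.16, edgeR adjusted p = 0.0347) and with no filter on low counts (1.33, adjusted p = 5.43e-06). In those fits edgeR called 143 of 8814 and 158 of 16603 genes. Each sample joined 2 wells. The log2 fold change of Vcam1 was 0.38 in well 1 alone (edgeR adjusted p = 0.987) and 2.02 in well 2 alone (adjusted p = 0.0288). In well 2 alone 6 of 5154 genes were called. In the same cells the 6 monocyte markers summed to 1223 to 1952 CPM in high-fat diet samples and 2088 to 2735 CPM in control samples, also without overlap. The 8 macrophage markers summed to 8243 to 10151 CPM in high-fat diet samples and 5125 to 9604 CPM in control samples, and the 8 fibroblast markers to 1133 to 1731 CPM in high-fat diet samples and 672 to 3260 CPM in control samples. The part of these markers in the result was not tested.

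The leukocyte integrins and PSGL-1 showed differences in both directions and no call. Itga4 in dendritic-like cells had 154, 107 and 166 CPM in high-fat diet samples, against 106, 77.8 and 71.9 CPM in control samples (log2 fold change 0.67 ± 0.19, SE, edgeR adjusted p = 0.312), with the lowest high-fat diet value just above the highest control value. In well 2 alone that difference was -0.09, and well 1 had too few cells. Itga4 in Gata3 Il1rl1 lymphoid cells had 77.5, 36.7 and 38.7 CPM in high-fat diet samples, against 120, 84.9 and 74.2 CPM in control samples (-0.90 ± 0.36, edgeR adjusted p = 0.487), with an overlap. Itgb2 in dendritic-like cells averaged 127 ± 16.6 CPM in high-fat diet samples and 97.5 ± 3.69 CPM in control samples (SD, n = 3 each), without overlap.

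Selplg was lower in high-fat diet samples in both classes where its groups did not overlap. Macrophage-like cells had 100, 85.6 and 97.9 CPM in high-fat diet samples, against 118, 117 and 135 CPM in control samples (log2 fold change -0.47 ± 0.15, SE, edgeR adjusted p = 0.522). Gata3 Il1rl1 lymphoid cells had 289, 293 and 232 CPM in high-fat diet samples, against 296, 340 and 489 CPM in control samples (-0.55 ± 0.22, edgeR adjusted p = 0.495), and the groups there were separated by the small gap between 293 and 296 CPM. Itgal in T cell-like cells averaged 134 ± 15.4 CPM in high-fat diet samples and 87.9 ± 33.4 CPM in control samples (0.36 ± 0.19, edgeR adjusted p = 0.434). The Cxcr6 Cd163l1 cluster, which was high in Itgal, gave 120 of 199, 136 of 174 and 63 of 101 T cell-like cells in high-fat diet samples, against 52 of 77, 104 of 753 and 97 of 428 in control samples, and its part in the result was not tested. Of all genes, edgeR called 0% in macrophage-like cells (884 genes at an unadjusted p under 0.05 and 27 called by DESeq2), 0.0128% in dendritic-like, 0.0447% in Gata3 Il1rl1 lymphoid and 0.0676% in T cell-like cells. Without control 1, dendritic-like Itga4 (edgeR adjusted p = 0.0331), Gata3 Il1rl1 lymphoid Selplg (0.0148) and Ccr2 Lyz1 Ear2 myeloid Itgal (0.0321) passed. In those fits edgeR called 550 of 8177 genes in dendritic-like, 119 of 3056 in Gata3 Il1rl1 lymphoid and 143 of 8814 in Ccr2 Lyz1 Ear2 myeloid cells.

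**Figure D4:**
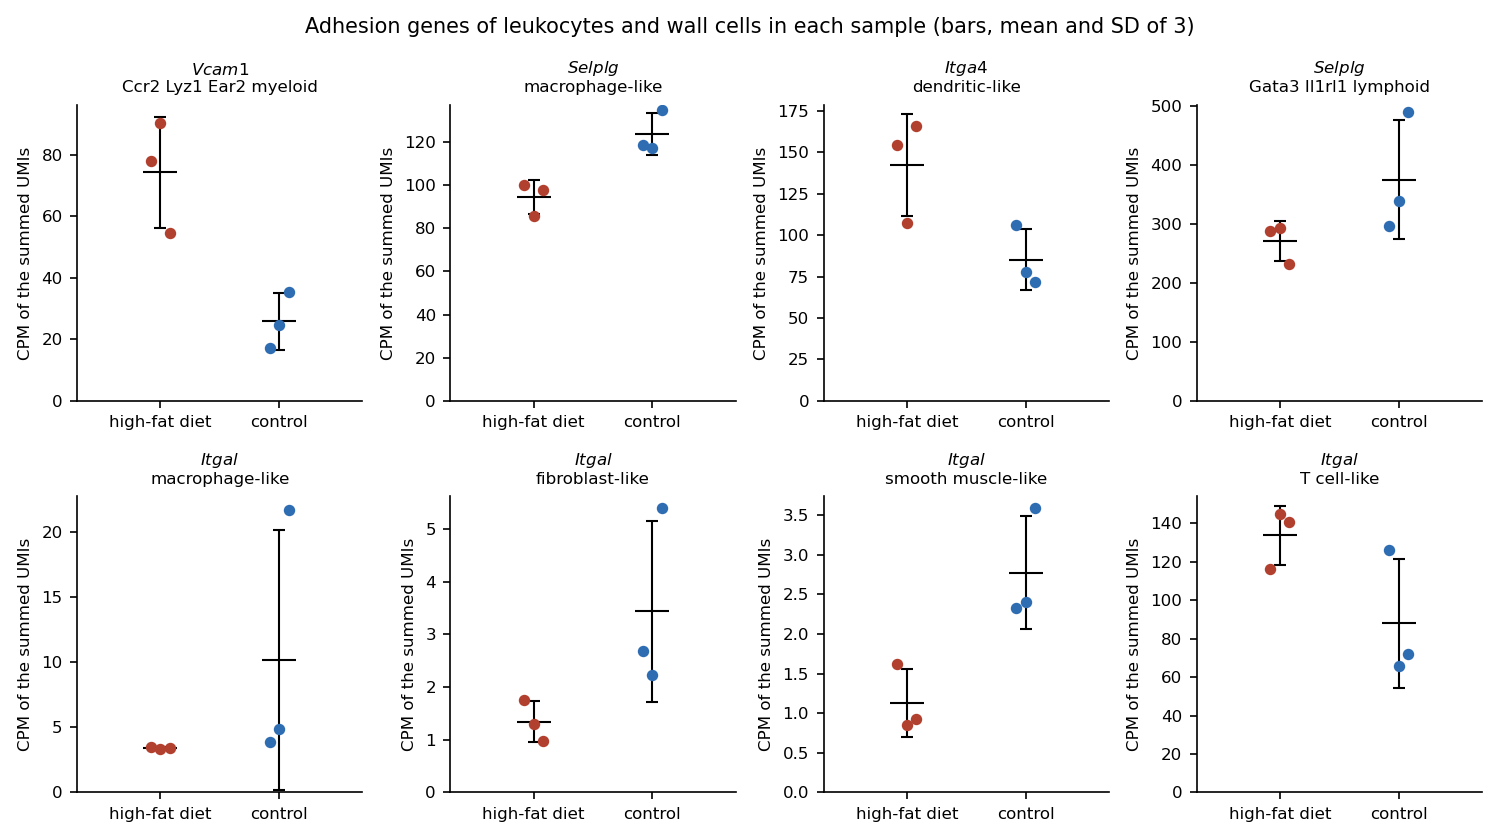
CPM (vertical axes) of Vcam1, Selplg, Itga4 and Itgal in the named classes, with 1 point per sample, high-fat diet left of control, and bars at the mean and SD of 3. Vcam1 in Ccr2 Lyz1 Ear2 myeloid cells is at 54.6 to 90.3 CPM in high-fat diet samples and at 17.3 to 35.5 CPM in control samples, and Selplg in macrophage-like cells is at 85.6 to 100 CPM in high-fat diet samples and at 117 to 135 CPM in control samples.

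Other genes of the adhesion cascade were read from 4 lists, and none of their members was called by diet in any class. Calls were rare among all genes too, at 0.088% of 114766 gene and class pairs and 0.0491% of 10174 genes in all blood vessel endothelial cells. In all blood vessel endothelial cells, 10 other adhesion receptors and ligands were tested, with a median log2 fold change of -0.01, as were 10 transmigration and junction genes (median 0.06), 11 genes of integrin activation and receptor anchoring (0.16) and 14 cytokine receptors and NF-kB genes (-0.11). The median of all genes tested was -0.00395. The 2 genes with the smallest p in the first list were Ackr1, a chemokine-binding receptor of venules, and Itgb1, the beta chain of VLA-4. Ackr1 had 11.4, 9.52 and 7.46 CPM in high-fat diet samples, against 48.5, 18.7 and 19.6 CPM in control samples (-1.60 ± 0.37, SE, edgeR adjusted p = 0.173), and Itgb1 averaged 554 ± 26.4 CPM in high-fat diet samples and 358 ± 124 CPM in control samples (0.61 ± 0.19, edgeR adjusted p = 0.266). In the other lists they were the junction genes Jam3 (-0.95) and Jam2 (0.32), the Rap1 activator Rasgrp2 (0.61) and the cytoskeletal linker Msn (0.29), and the receptor genes Il1r1 (0.63) and Il4ra (0.42). Ackr1 is also 1 of the 7 venous-type markers. Venous-type-like cells were 39 of 435, 45 of 421 and 29 of 685 blood vessel endothelial cells in high-fat diet samples, against 32 of 222, 52 of 290 and 60 of 466 in control samples. The part of this make-up in the Ackr1 difference was not tested.

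Because the study's title names VCAM1-positive endothelium, cells were also split by Vcam1. Each of the 2519 blood vessel endothelial cells was thinned to 1000 UMIs and called positive with at least 1 Vcam1 UMI, which gave 263 positive and 2256 negative cells. Arterial-like cells made up 65.4% of positive and 9.75% of negative cells, Npr3 Hand2 cells 15.6% and 4.08%, venous-type-like cells 9.13% and 10.3%, and capillary-like cells 7.22% and 58.2%. The positive share was 11.7%, 9.74% and 8.47% in high-fat diet samples, against 12.6%, 19.7% and 6.01% in control samples. The high-fat diet samples lay within the range of the control samples, and the difference of -2.78 percentage points gave an exact two-sided permutation p of 0.6, where 3 against 3 samples cannot go below 0.1. Without control 2 the difference was 0.666. Among arterial-like cells the share was 42.6%, 67.4% and 37.7% in high-fat diet samples, against 46.7%, 44.7% and 28.6% in control samples (exact permutation, p = 0.6).

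Icam2 was higher in Vcam1-positive cells. It averaged 463 ± 109 CPM in positive cells and 279 ± 73.5 CPM in negative cells (SD, n = 6), and was higher in 6 of 6 samples (log2 fold change 0.74 ± 0.17, SE, edgeR adjusted p = 0.000534, sample as a block), in a comparison that called 22.7% of 1918 genes and 10.8% in that direction. Icam1 averaged 139 ± 86.2 CPM in positive cells and 56.8 ± 17.6 CPM in negative cells, and Selp 133 ± 74.0 CPM in positive cells and 18.4 ± 7.73 CPM in negative cells, each higher in 5 of 6 samples. Both were below the filter on low counts there. With no filter, where edgeR called 894 of 15230 genes, the Icam2 call was lost (0.33, edgeR adjusted p = 0.420), while Icam1 (1.01, adjusted p = 0.0337) and Selp (2.46, adjusted p = 2.17e-07) were called. With DESeq2, which called 6.32% of 6077 genes, they were tested and called, at 1.24 for Icam1 (DESeq2 adjusted p = 0.0364) and 2.78 for Selp. All 4 Sele UMIs fell in positive cells. Of the listed junction genes, the endothelial adhesion molecule Pecam1 was higher in positive cells (1.02), and the adherens junction gene Cdh5 (-1.18) and Esam (-0.49, edgeR adjusted p = 0.0375) were lower, as was Rasgrp2 (-2.70).

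Within arterial-like cells alone no member was called in the split, with only Icam2 tested. Icam2 averaged 489 ± 127 CPM in positive and 561 ± 175 CPM in negative arterial-like cells (SD, n = 6), a log2 fold change of -0.01, and 0 of 382 genes were called there, with 25 at an unadjusted p under 0.05. Pecam1 averaged 2676 ± 471 CPM in positive and 2805 ± 750 CPM in negative arterial-like cells. In the same order Cdh5 averaged 326 ± 90.5 and 355 ± 136 CPM, and Esam 324 ± 115 and 392 ± 279 CPM. Rasgrp2 averaged 14.9 ± 27.7 and 32.1 ± 36.5 CPM, from 3 and 5 UMIs. An Icam1 UMI was found in 15.1% of 172 positive and 33 of 220 negative arterial-like cells, and a Selp UMI in 13.4% of positive and 11.4% of negative ones. Over all blood vessel endothelial cells these shares were 14.4% of positive and 5.01% of negative cells for Icam1, and 11.03% of positive and 1.596% of negative cells for Selp. Among capillary-like cells alone 0 of 809 genes were called, with 65 at an unadjusted p under 0.05. The shares in the other classes rest on few positive cells and were not tested. Among venous-type-like cells a Selp UMI was found in 5 of 24 positive and 6 of 233 negative cells, and an Icam2 UMI in 9 of 24 positive and 46 of 233 negative cells. Among capillary-like cells an Icam1 UMI was found in 3 of 19 positive and 35 of 1314 negative cells. At 1000 UMIs a cell that expresses Vcam1 can be called negative by sampling.

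**Figure D5:**
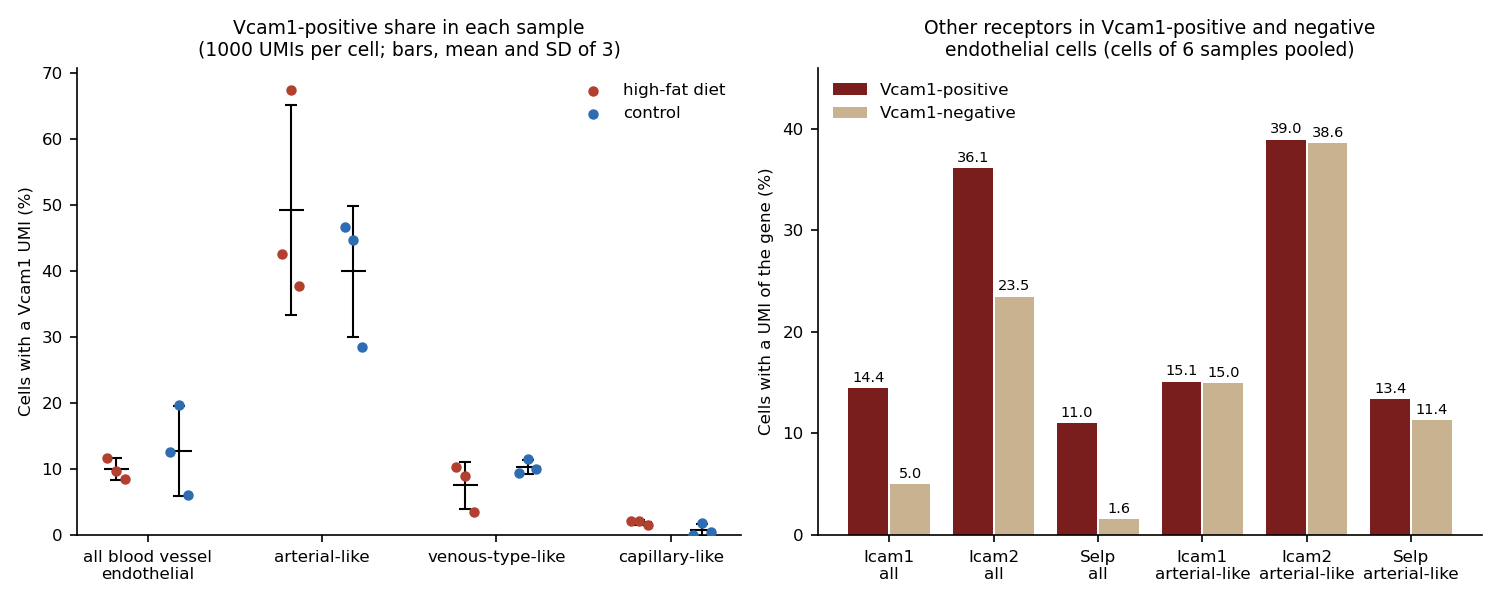
Left, share of cells with a Vcam1 UMI at 1000 UMIs (vertical axis, percent) in each sample, high-fat diet left of control, with bars at the mean and SD of 3. Right, share of Vcam1-positive and Vcam1-negative cells with a UMI of Icam1, Icam2 or Selp, over the pooled cells of 6 samples: over all blood vessel endothelial cells Icam1 is at 14.4% of positive and 5.01% of negative cells, and within arterial-like cells Selp is at 13.4% of positive and 11.4% of negative cells.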

How the data were processed

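Single cells of aorta were counted by 10x Genomics 3′ v2 chemistry in 3 high-fat diet and 3 Control samples, each file joining 2 wells. The values are UMI counts per gene and cell as deposited; per the submitters' processing notes, the authors used Cell Ranger 3.0 with mm10. Introns, strand and further filters were not given in the sources used here. Total depth was 41388034 to 83886418 UMIs per sample, and intervals and floors cover counting error only.

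Cells with at least 300 genes and at most 20% mitochondrial UMIs were kept. Doublets were called with scrublet in scanpy 1.11.5 (cut 0.25) and left out, 2.32% of the filtered cells. Cells were clustered (2000 variable genes, 30 components, 20 neighbours, Leiden resolution 1, with sub-clusters at 0.6) without 30 genes, members among them, and named from marker lists. Counts were added up over the cells of a class in each sample, and 17 of 28 classes with at least 20 cells in every sample were tested by diet with edgeR 4.0.16 (quasi-likelihood, TMM, filterByExpr, Benjamini-Hochberg, threshold 0.05). Vcam1-positive and negative cells were compared in edgeR, blocking on the sample. DESeq2 1.42.0, another normalization, no filter, a replicate block, each sample left out, other cell filters, a gate per cell and each well alone were tried as alternatives, the wells after the data had been seen. The tests were checked on data simulated with a fixed spread, with no difference between libraries beyond depth and the 200 changed genes. Those genes had at least 20 CPM, so recovery at lower levels, where many members lay, was not checked. Of 2-fold changes, 56% were recovered by diet in all blood vessel endothelial, 24% in arterial-like and 55% in fibroblast-like cells, and 21% in the Vcam1 split. Of 4-fold changes, 97%, 82%, 100% and 61% were recovered, with 8, 7, 5 and 6 false calls. Many changes of 2-fold would thus be missed. Exact permutation tests used scipy 1.17.1.

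The members and lists were chosen with earlier results of these data known. Genes beside the members were named by rule: the 5 genes with the highest r for each endothelial member, the 2 genes with the smallest p of each list by diet, and list genes called in the Vcam1 split. NK, B, plasma and neutrophil-like cells and small endothelial clusters fell under 20 cells in a sample and were not tested.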

Additional observations from a re-analysis of the deposited data

How the results depend on the processing

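Of 639 values of 58 results under alternatives, 564 kept their direction and their side of the threshold, or moved by less than the spread where nothing was tested. Of the members by diet, 1 was called in the main analysis, 4 with no filter on low counts, 0 in well 1 alone and 0 to 6 with a sample left out: 0 without high-fat diet 1, high-fat diet 2 or control 3, and 6 without control 1. The pairs of a member and a class tested were 73 in the main analysis, 158 with no filter, 35 in well 1 alone and 77 without control 1. The gene and class pairs called were 101 in the main analysis, 3128 without control 1, 1369 with no filter, 497 with DESeq2, 31 without high-fat diet 1, 22 without high-fat diet 2, 54 without control 2, 51 without control 3, 3 in well 1 alone and 52 in well 2 alone. In the Vcam1 split, 1 member (Icam2) was called in the main analysis, 2 others (Icam1 and Selp) and not Icam2 with no filter, 3 with DESeq2, 3 at 2000 UMIs, and 1 to 3 with a sample left out. Of all genes in that split, 894 of 15230 were called with no filter and 977 of 3813 at 2000 UMIs. In arterial-like or capillary-like cells alone 0 members were called of 1 tested, and in venous-type-like cells alone 0, with 0 tested. The difference in Vcam1-positive share ran from -6.16 to 0.666 percentage points with a sample left out. Under the gate per cell, arterial-like means were 482 CPM for Vcam1, 359 for Icam2 and 79.9 for Selp. The interaction test called 0 genes in the main analysis, 6 with no filter and 9 without control 1.

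The values that reversed follow, and the cause was not tested. Under the gate per cell, log2 fold changes by diet were 0.62 for arterial-like Icam1, 0.0277 for fibroblast-like Vcam1 and 0.0360 for smooth muscle-like Vcam1, and with no filter fibroblast-like Vcam1 was 0.00331. In well 1 alone they were -0.0838 for capillary-like Icam2, -0.0841 for Vcam1 and -0.29 for Selp in all blood vessel endothelial cells, 0.10 for pericyte-like Vcam1, 0.46 for fibroblast-like Vcam1, -0.10 for fibroblast-like Icam1, 0.0524 for smooth muscle-like Vcam1 and -0.69 for macrophage-like Vcam1. In well 2 alone they were -0.20 for mural Vcam1 and -0.0860 for dendritic-like Itga4. With a sample left out, Vcam1 ran from -0.41 to 0.33 in lymphatic-like, -0.14 to 0.84 in all blood vessel endothelial, -0.63 to 0.67 in pericyte-like, -0.16 to 0.33 in mural, -0.14 to 0.19 in fibroblast-like, -0.48 to 0.23 in smooth muscle-like and -0.12 to 0.76 in macrophage-like cells. Likewise Icam1 ran from -0.14 to 0.0595 and Icam2 from -0.00539 to 0.48 in arterial-like cells, Selp from -0.20 to 0.50 in all blood vessel endothelial cells, and the Icam2 interaction from -0.0643 to 0.28. In the Vcam1 split, Icam2 was -0.0119 in arterial-like and -0.19 in capillary-like cells alone, Pecam1 was -0.0334 and -0.44, and Esam was 0.14 in capillary-like cells alone.

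Same-numbered samples did not deviate together in every class (r from -0.30 to 0.39 in 4 classes), so the replicate numbers were not taken as pairs. Samples numbered 3 had r of 0.39 in smooth muscle-like and 0.23 in fibroblast-like cells, where control 3 was the best match of high-fat diet 3. With a replicate block, 1 member and 98 gene and class pairs were called. Depth limits Sele, and the small numbers of venous-type-like cells (29 to 60 in a sample) and arterial-like cells (21 to 130) limit the precision of their levels.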
